A study of Homo sapiens with 16 samples.

Results

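Messenger RNA of 10 regulators of mitochondrial apoptosis from the BCL2 family, BCL2, BCL2L1, MCL1, BCL2A1, BCL2L11, BAX, BAK1, BBC3, PMAIP1 and BID, was followed in 8 human blood cancer cell lines. The 10 genes are a list of well known family members taken by symbol, and all 10 are present among the 23230 gene symbols of the deposited counts. In none of the peptide comparisons did a member pass the test. The same member differed between lines far more than between the libraries of a line. Among members reaching 10 counts per 1000000, differences within a line of at least 1.5-fold lay in THP1, RAJI and MOLM13. In these lines larger shares of all genes also differed by this rule than in the rest. Below that level, BCL2 in K562 and BCL2A1 in RS4-11 also differed at least 1.5-fold, on few counts. Each line was kept either with Y518R, a peptide that binds DPY30, or with 3R, a peptide that does not. DPY30 is a core subunit of the SET1/MLL histone methyltransferase complexes. Tested were 8 libraries with Y518R, set against 8 libraries with 3R, so each line gave 1 library per peptide. All 16 cultures shared Advanced RPMI medium and fetal bovine serum at 2.5%, with peptide dose and time not given in the sources used here.

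Lines labelled with an MLL fusion were MOLM13 and THP1 (MLL-AF9), RS4-11 (MLL-AF4) and KOPN8 (MLL-ENL), and are called MLL-fusion lines here. The other lines were K562 (leukemia with BCR-ABL), RAJI (Burkitt's lymphoma), JURKAT (leukemia of T cells, labelled as Myc dependent) and P493-6 (labelled as a model of Burkitt's lymphoma). Each class therefore holds 4 lines, and each line is a single established culture. Lineage markers were checked in sets of 5. At least 3 of 5 myeloid markers reached 10 CPM, counts per 1000000 counts of the scaled library, in both libraries of MOLM13 and THP1, 5 of 5 B cell markers did so in RS4-11, KOPN8, RAJI and P493-6, 5 of 5 T cell markers in JURKAT, and 5 of 5 erythroid markers in K562. Some markers of other lineages also reached 10 CPM, such as 2 of 5 myeloid markers in both K562 libraries. Libraries held 19354300 to 43003124 gene counts. Between 17.7% and 26.9% of reads fell to no gene in 15 libraries and 44.7% in the RAJI library with 3R, so estimates that turn on RAJI are given with and without it. In bulk RNA, fewer cells that express a gene and less of its RNA per cell cannot be told apart.

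The BCL2 family decides whether the outer mitochondrial membrane is breached. BCL2, BCL-XL (the main product of BCL2L1), MCL1 and BFL-1 (from BCL2A1) hold the membrane closed by binding their pro-apoptotic relatives. BAX and BAK (from BAK1) form the pores through which cytochrome c leaves, and the BH3-only proteins BIM (from BCL2L11), PUMA (from BBC3), NOXA (from PMAIP1) and BID start the process by binding the guardians or the pore formers. In leukemia and lymphoma the balance of the guardians is the target of BH3 mimetic drugs, of which venetoclax against BCL2 is the best known.

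Promoter sequence from RefSeq (GRCh38.p14, 250 bases before to 50 after the start) was matched by symbol for 9 of the 10 members. It is shown for the 3 pro-apoptotic members that had their lowest peptide ratio in THP1 and for BCL2A1, whose level varied most between lines. Capitals mark the motifs found.
BCL2L11, chr2:111120664-111120963, plus strand: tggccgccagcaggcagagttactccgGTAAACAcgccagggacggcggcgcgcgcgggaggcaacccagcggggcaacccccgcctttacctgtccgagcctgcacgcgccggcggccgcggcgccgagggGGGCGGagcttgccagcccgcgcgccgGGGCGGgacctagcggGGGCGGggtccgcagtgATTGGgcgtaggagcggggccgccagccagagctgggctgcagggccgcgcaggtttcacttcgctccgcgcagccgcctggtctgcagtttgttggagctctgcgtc
BBC3, chr19:47232618-47232917, minus strand: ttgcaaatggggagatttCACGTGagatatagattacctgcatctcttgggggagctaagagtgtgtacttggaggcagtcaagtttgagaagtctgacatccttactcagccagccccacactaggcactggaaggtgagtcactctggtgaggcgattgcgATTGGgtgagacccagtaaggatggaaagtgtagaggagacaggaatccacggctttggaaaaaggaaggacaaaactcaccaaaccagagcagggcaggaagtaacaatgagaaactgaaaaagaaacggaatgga
BAX, chr19:48954625-48954924, plus strand: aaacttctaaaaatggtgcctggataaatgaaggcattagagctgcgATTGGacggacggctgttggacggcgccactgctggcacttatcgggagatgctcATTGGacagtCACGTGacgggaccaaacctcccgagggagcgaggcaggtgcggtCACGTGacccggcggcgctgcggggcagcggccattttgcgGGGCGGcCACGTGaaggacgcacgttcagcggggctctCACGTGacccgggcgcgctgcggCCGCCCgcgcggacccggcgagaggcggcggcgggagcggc
BCL2A1, chr15:79971147-79971446, minus strand: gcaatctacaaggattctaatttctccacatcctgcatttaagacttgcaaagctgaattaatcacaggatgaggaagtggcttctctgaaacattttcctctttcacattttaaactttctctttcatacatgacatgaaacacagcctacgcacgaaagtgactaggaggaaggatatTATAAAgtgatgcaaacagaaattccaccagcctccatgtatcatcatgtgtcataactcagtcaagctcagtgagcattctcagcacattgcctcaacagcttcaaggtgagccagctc

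The letters searched, on both strands, were the GC box GGGCGG, the CCAAT box and the E-box form CACGTG that MYC binds with MAX. Also searched were the forkhead motif TGTTTAC, the TATA motif TATAAA and the kappaB consensus by its usual letters. The BCL2L11 promoter held GGGCGG 3 times, CCAAT 1 time and TGTTTAC 1 time. A match on the strand opposite to the printed one appears as its reverse complement. In the 4 printed promoters TGTTTAC appears so as GTAAACA, every CCAAT as ATTGG and the last GGGCGG of BAX as CCGCCC. The BAX promoter held CACGTG 4 times, GGGCGG 2 times and CCAAT 2 times, and that of BBC3 held CACGTG 1 time and CCAAT 1 time. Among the other printed promoters, that of BCL2A1 held TATAAA 1 time, at position -70 from the start. Its GC content was the lowest of the 9, 41.0%, against a median of 58.67% over all promoters. Of 35116 RefSeq promoters of this length, 44.95% held GGGCGG, 34.61% CCAAT, 7.256% CACGTG, 3.423% TGTTTAC, 11.53% TATAAA and 5.909% the kappaB consensus. Of the 9 members, 5 held GGGCGG, 4 CCAAT, 2 CACGTG, 1 TGTTTAC and 2 TATAAA, and 0 held the kappaB consensus. Only the first promoter entry of a member was searched, where BID had 5 entries and BCL2L1 had 2. No matches overlapped in the 4 printed promoters. These are matches of letters in a short window, and no binding was measured.

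Levels are given as CPM after scaling of library sizes by the trimmed mean of M-values (TMM), and the peptide ratio of a line is the log2 ratio of its Y518R to its 3R level with a prior count of 2. The change over 8 lines is the log2 fold change of edgeR's quasi-likelihood test with the line as a block, with its standard error (SE). All 10 members were tested and 0 were called at an adjusted p under 0.05, beside a background of 0 of 13043 genes (0%). An unadjusted p under 0.05 was reached by 0 members and 394 genes. DESeq2 also called 0 members, as did limma-voom, for which 1 member had an unadjusted p under 0.05. The adjusted p of every member was 0.999. Of the 10 changes, 2 lay above 0 and 8 below, with a median of -0.050, against -0.0037 over all genes tested, of which 51.7% lay below 0.

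Among the guardians, BCL2, the founding member and a blocker of BAX and BIM, spanned the widest range of the 10 after BCL2A1. In MOLM13, THP1, RS4-11 and KOPN8 it stood at 88.9, 149, 313 and 159 CPM with Y518R, against 78.0, 160.2, 308 and 142 CPM with 3R. In K562, RAJI, JURKAT and P493-6 it stood at 2.19, 64.4, 30.3 and 10.8 CPM with Y518R, against 0.908, 152, 26.2 and 12.3 CPM with 3R. RS4-11 was highest and K562 lowest with either peptide, and the ranges of THP1, KOPN8, RAJI and MOLM13 overlapped their neighbours in that order. In RAJI the level with Y518R was well under that with 3R, and K562 had only 66 counts with Y518R and 21 with 3R. Over 8 lines the change was -0.07 ± 0.15 (SE), and without RAJI it was 0.11.

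BCL2L1 encodes BCL-XL, the guardian known for keeping erythroid cells and platelets alive. MOLM13, THP1, RS4-11 and KOPN8 held 42.1, 39.9, 69.0 and 98.9 CPM with Y518R, against 42.2, 42.2, 67.3 and 89.1 CPM with 3R. K562, RAJI, JURKAT and P493-6 held 287, 109, 139 and 27.1 CPM with Y518R, against 248, 155, 149.9 and 24.5 CPM with 3R. K562, the line with erythroid markers, was highest and P493-6 lowest, and JURKAT and RAJI overlapped, as did MOLM13 and THP1. Over 8 lines BCL2L1 had an estimate of -0.020 ± 0.071 (SE), and without RAJI it was 0.051. Of its exon bases in GENCODE release 29, 42.8% are shared with the antisense gene ABALON, and as the labels used here name no strand setting for the counts, reads of the pair cannot be told apart.

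MCL1, a guardian whose protein is short-lived, was high in every library and varied little. With Y518R the 4 MLL-fusion lines (MOLM13, THP1, RS4-11, KOPN8) had 285, 429, 242 and 281 CPM, against 368, 383, 238 and 289.6 CPM with 3R. With Y518R the 4 other lines (K562, RAJI, JURKAT, P493-6) had 387, 403, 175 and 212 CPM, against 423, 497, 152 and 225 CPM with 3R. RAJI, THP1 and K562 led the order with overlapping ranges, and JURKAT was lowest. MCL1 stood over 8 lines at -0.067 ± 0.065 (SE), and it stayed below 0 whichever line was left out, between -0.10 and -0.020.

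BCL2A1, which encodes BFL-1, a guardian induced by NF-kappaB in B cells and myeloid cells, had over 100 counts in RAJI, MOLM13 and P493-6 and at most 27 in the libraries of the other 5 lines. Its counts in MOLM13, THP1, RS4-11 and KOPN8 were 169, 15, 27 and 6 with Y518R, against 208, 20, 10 and 3 with 3R. Its counts in K562, RAJI, JURKAT and P493-6 were 0, 714, 2 and 121 with Y518R, against 0, 1466, 6 and 139 with 3R. The count of 0 in both K562 libraries allows up to 0.0998 CPM with Y518R and 0.130 CPM with 3R, taking 3 counts as the limit. In RAJI the level was 37.2 CPM with Y518R, against 77.9 CPM with 3R. For BCL2A1 the estimate over 8 lines was -0.23 ± 0.26 (SE), and without RAJI it was 0.11.

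**Figure D1:**
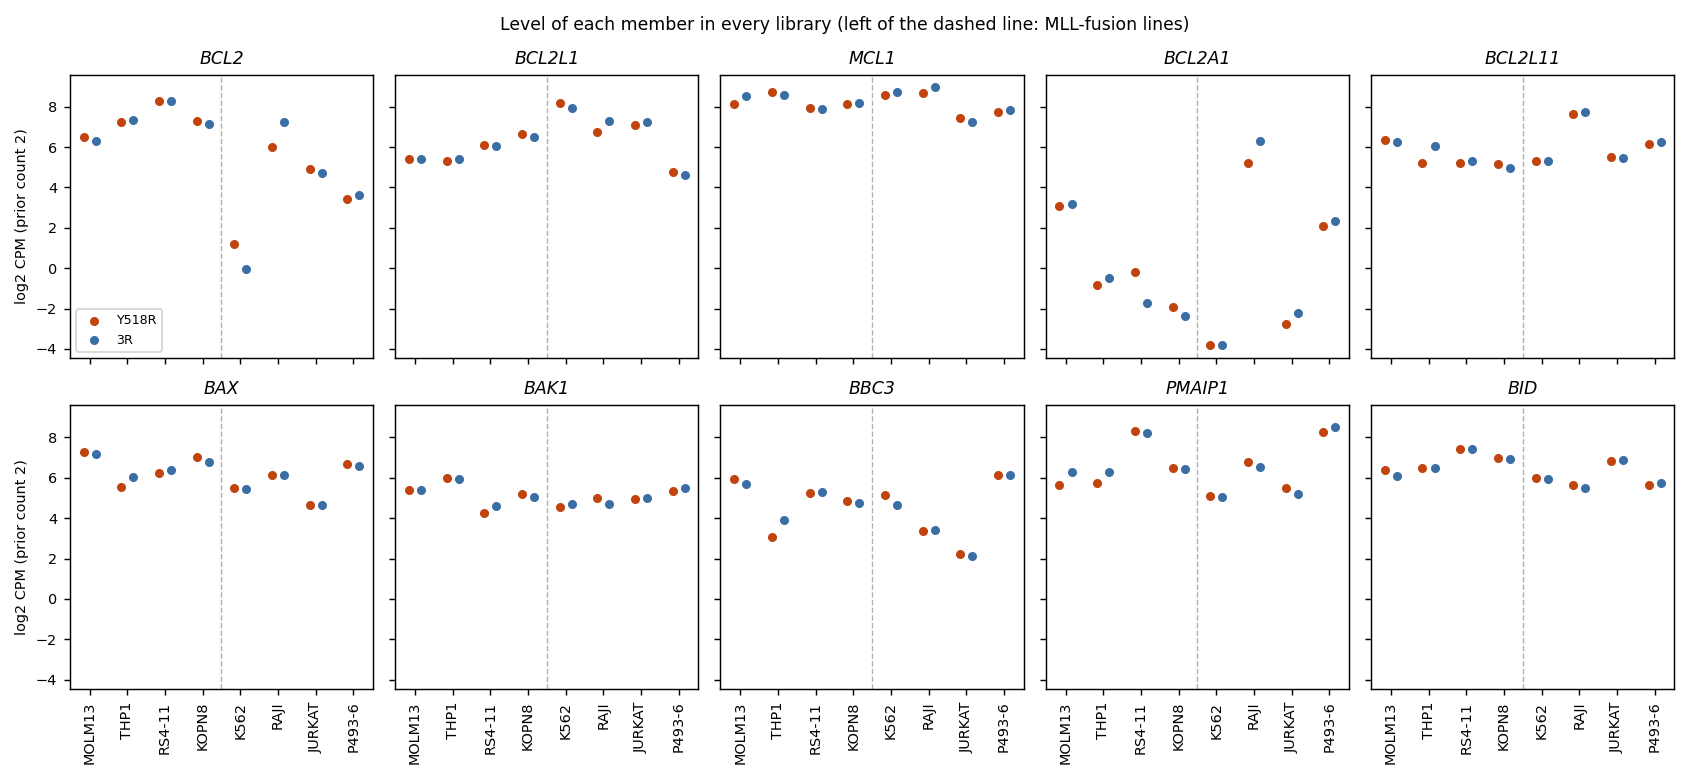
Level of each member in every library, as log2 CPM with a prior count of 2 on the vertical axis, by line, with Y518R left of 3R in each pair and MLL-fusion lines left of the dashed line. BCL2 and BCL2A1 spread most between lines, while MCL1 and BAK1 lie in narrow bands.

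Of the pore formers, BAX was highest in MOLM13 and lowest in JURKAT. MOLM13, THP1, RS4-11 and KOPN8 had 155, 47.3, 75.4 and 129 CPM with Y518R, against 145, 66.4, 84.4 and 111 CPM with 3R. K562, RAJI, JURKAT and P493-6 had 45.1, 71.2, 24.8 and 104 CPM with Y518R, against 44.1, 69.3, 25.4 and 94.4 CPM with 3R. No neighbouring lines overlapped, so the order MOLM13, KOPN8, P493-6, RS4-11, RAJI, THP1, K562, JURKAT held in both libraries. BAX stood at -0.020 ± 0.070 (SE), and without THP1 it was 0.046.

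BAK1, which encodes BAK, the pore former already resident in the mitochondrial membrane, had the smallest spread between lines of the 10. Its 4 MLL-fusion lines (MOLM13, THP1, RS4-11, KOPN8) showed 41.4, 63.0, 19.1 and 36.1 CPM with Y518R, against 42.5, 61.2, 24.2 and 33.4 CPM with 3R. Its 4 other lines (K562, RAJI, JURKAT, P493-6) showed 23.6, 32.4, 30.4 and 40.8 CPM with Y518R, against 26.1, 26.1, 31.8 and 44.8 CPM with 3R. THP1 was highest, and JURKAT, RAJI, K562 and RS4-11 formed a chain of overlapping ranges at the low end. The estimate for BAK1 was -0.033 ± 0.074 (SE), and without RS4-11 it was 0.011. Of its exon bases 4.11% are shared with GGNBP1 on the opposite strand.

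Among the BH3-only genes, BCL2L11, which encodes BIM, a binder of all the guardians whose gene is a known target of FOXO factors, stood apart in RAJI. The MLL-fusion lines (MOLM13, THP1, RS4-11, KOPN8) had 81.2, 36.9, 36.7 and 35.2 CPM with Y518R, against 75.4, 66.8, 40.2 and 31.1 CPM with 3R. The other lines (K562, RAJI, JURKAT, P493-6) had 39.8, 201, 45.3 and 71.3 CPM with Y518R, against 39.9, 216, 43.3 and 76.1 CPM with 3R. RAJI was above every other library with either peptide, and THP1 was the line whose peptides differed most. For BCL2L11 it was -0.10 ± 0.09 (SE), with the lowest p of the 10, and without THP1 it was 0.00046. On the opposite strand, MIR4435-2HG shares 11.9% of its exon bases.

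BBC3, which encodes PUMA, a BH3-only protein that binds all the guardians, was highest in P493-6 and lowest in JURKAT. Levels in MOLM13, THP1, RS4-11 and KOPN8 were 61.7, 8.37, 37.8 and 29 CPM with Y518R, against 51.1, 14.8, 39.1 and 27.2 CPM with 3R. Levels in K562, RAJI, JURKAT and P493-6 were 35.3, 10.2, 4.57 and 69.3 CPM with Y518R, against 25.3, 10.7, 4.36 and 71.0 CPM with 3R. THP1 was again the line with the lowest ratio, while K562 had the highest. BBC3 had an estimate of 0.0040 ± 0.11 (SE), and without THP1 it was 0.11.

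PMAIP1, which encodes NOXA, a BH3-only protein that binds MCL1 and BFL-1, split into lines with very high and moderate levels. The MLL-fusion lines MOLM13, THP1, RS4-11 and KOPN8 held 50.2, 53.6, 325 and 88.7 CPM with Y518R, against 77.7, 77.4, 294 and 85.5 CPM with 3R. The other lines K562, RAJI, JURKAT and P493-6 held 34.0, 109, 45.5 and 312 CPM with Y518R, against 32.7, 93.0, 37.1 and 362 CPM with 3R. P493-6 and RS4-11 overlapped at the top, and the highest library of the remaining 6 lines was RAJI with Y518R. The estimate for PMAIP1 over 8 lines was -0.074 ± 0.095 (SE), and without MOLM13 it was 0.0065.

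BID, which links death receptors to mitochondria once cleaved by caspase-8, was the steadiest member between the peptides of a line. In the MLL-fusion lines (MOLM13, THP1, RS4-11, KOPN8) the levels were 84.0, 88.6, 171 and 125 CPM with Y518R, against 69.0, 88.3, 171 and 123 CPM with 3R. In the other lines (K562, RAJI, JURKAT, P493-6) the levels were 64.4, 49.4, 112 and 50.1 CPM with Y518R, against 61.4, 45.8, 117 and 54.4 CPM with 3R. RS4-11 was highest, RAJI lowest, and no neighbouring lines in the order overlapped. BID stood at 0.037 ± 0.053 (SE), and it stayed above 0 whichever line was left out, between 0.0057 and 0.057.

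On the log2 CPM scale, the SD of line means was 3.26 for BCL2A1, 2.52 for BCL2, 1.36 for BBC3, 1.23 for PMAIP1 and 1.12 for BCL2L1. It was 0.86 for BCL2L11, 0.83 for BAX, 0.64 for BID, 0.51 for MCL1 and 0.49 for BAK1, beside a median of 0.76 over the 13043 genes tested. In the same unit the SD within a line, pooled over lines, was between 0.085 for BID and 0.52 for BCL2A1. So for every member the lines differed more than the peptides did.

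The makeup of the guardians can be compared between genes only per length, so levels were divided by the union of exons in GENCODE release 29 to give CPM per kb. MCL1 was the most abundant guardian on this scale in 13 of 16 libraries and BCL2L1 in the remaining 3. The BCL2L1 level may be changed by its exon overlap with ABALON, and the part of this in the order was not tested. In JURKAT, BCL2L1 took 51.7% of the summed CPM per kb of the 4 guardians with Y518R, against 57.1% with 3R, and MCL1 took 45.5% with Y518R, against 40.4% with 3R. In K562, BCL2L1 took 51.4% with Y518R, against 45.5% with 3R, and MCL1 took 48.5% with Y518R, against 54.4% with 3R. JURKAT and K562 were thus the lines in which BCL2L1 came close to or passed MCL1.

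Elsewhere MCL1 led, and the runner-up differed between lines and, in RAJI, between the libraries. RS4-11 was the line with the highest BCL2 share, 24.1% with Y518R, against 24.3% with 3R, and MCL1 there took 53.4% with Y518R, against 53.8% with 3R. In RAJI, BCL2A1 took 19.4% with Y518R, against 27.5% with 3R, and BCL2 took 3.1% with Y518R, against 5.0% with 3R. In P493-6 the MCL1 share was 78.5% with Y518R, against 79.5% with 3R, the RAJI and P493-6 lines thus having quite different mixtures although both carry a Burkitt label. With the length of the longest transcript in place of the union of exons, an alternative chosen after the data were seen, the leading guardian changed in 0 libraries. The runner-up in both THP1 libraries became BCL2 in place of BCL2L1. The BCL2 share in RS4-11 became 32.1% with Y518R, against 32.3% with 3R.

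**Figure D2:**
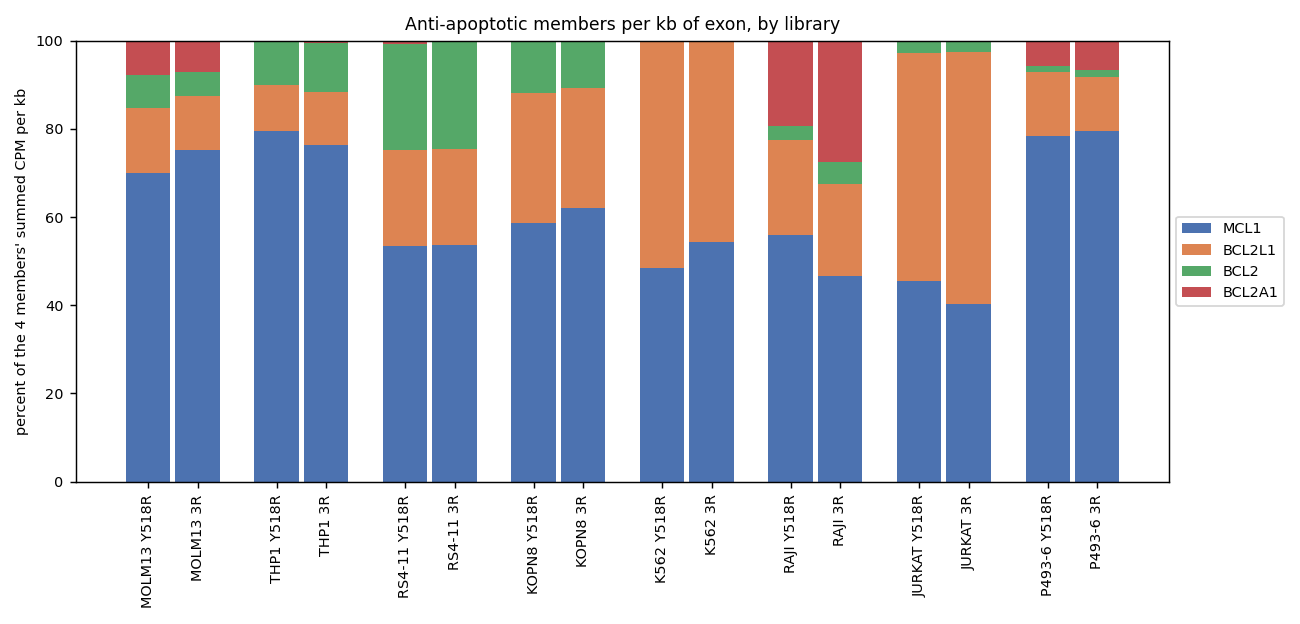
Share of each guardian (BCL2, BCL2L1, MCL1, BCL2A1) in the summed CPM per kb of exon of the 4, in percent on the vertical axis, for every library, with Y518R left of 3R in each line. MCL1 takes the largest share in 13 libraries, and BCL2L1 in both JURKAT libraries and in K562 with Y518R.

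Whether the peptide acted on the family in MLL-fusion lines was tested with a peptide term for each class of 4 lines. In MLL-fusion lines 0 of 10 members were called, beside a background of 0 of 13043 genes (0%), and 0 members but 762 genes had an unadjusted p under 0.05. DESeq2 and limma-voom also called 0 members. The lowest p was that of PMAIP1, at -0.23 ± 0.12 (SE, adjusted p = 0.841, edgeR), with levels lower with Y518R in MOLM13 and THP1 and higher in RS4-11 and KOPN8. Leaving out 1 of these lines gave -0.10 without MOLM13, -0.14 without THP1, -0.37 without RS4-11 and -0.33 without KOPN8. BCL2L11 had an estimate of -0.18 ± 0.13 (SE), with levels lower with Y518R in THP1 and RS4-11 and higher in MOLM13 and KOPN8, and without THP1 the estimate was 0.045. BID was at 0.074 ± 0.077 (SE). The other 7 members lay between -0.10 for BBC3 and 0.29 for BCL2A1, and the median of the 10 was -0.055, against -0.00041 over all genes.

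In the 4 other lines 0 of 10 members were called, beside a background of 0 of 13043 genes (0%), and 1 member and 202 genes had an unadjusted p under 0.05. DESeq2 and limma-voom also called 0 members. That member was BCL2A1, at -0.71 ± 0.32 (SE, adjusted p = 0.9996, edgeR), and without RAJI its estimate was -0.38. For BCL2A1 limma-voom gave -0.93 (adjusted p = 0.230) and DESeq2 -0.69 (adjusted p = 0.9999). With limma-voom 2 members had an unadjusted p under 0.05. BCL2 stood at -0.27 ± 0.22 (SE), and without RAJI at 0.19. MCL1 stood at -0.078 ± 0.095 (SE), and the other 7 members lay between -0.067 for BCL2L1 and 0.12 for BBC3. The median of the 10 was -0.023, against -0.0049 over all genes.

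The difference between the classes was tested directly as the peptide effect in MLL-fusion lines minus that in the other lines. Here 0 of 10 members were called, beside a background of 0 of 13043 genes (0%), and 0 members and 494 genes had an unadjusted p under 0.05. DESeq2 and limma-voom called 0 members as well. BCL2A1 had the lowest p, with a difference of 0.99 ± 0.47 (SE, adjusted p = 0.999, edgeR). Its difference was 0.73 without RAJI and 0.59 without RS4-11, where it had 27 counts with Y518R and 10 with 3R, and in both cases PMAIP1 then had the lowest p. PMAIP1 differed by -0.32 ± 0.18 (SE) and BCL2 by 0.34 ± 0.29 (SE), the BCL2 estimate becoming -0.13 without RAJI. The other 7 members lay between -0.22 for BBC3 and 0.094 for BCL2L1.

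Within a line there is 1 library per peptide and so no test. A ratio is given instead with the exact 95% interval of a ratio of counts, which covers counting error only. A member is counted where it reached 10 CPM in at least 1 library of the line and differed at least 1.5-fold. In THP1, 2 members were lower with Y518R by this rule, beside 3.5% of 9811 genes. BCL2L11 had 36.9 CPM with Y518R, against 66.8 CPM with 3R, a log2 ratio of -0.86 (fold 0.512 to 0.593). BBC3 had 8.37 CPM with Y518R, against 14.8 CPM with 3R, a log2 ratio of -0.81 (fold 0.484 to 0.663). It reached 10 CPM only with 3R, so it entered the count through the library in which it was higher. BCL2L11 and BBC3 were thus both lower in this line. PMAIP1 and BAX lay in the same direction short of the rule, with log2 ratios of -0.53 and -0.49. Of BCL2 family genes outside the 10 that reached 10 CPM, BMF stood at 0.58, BNIP3L at 0.26, BIK at -0.31 and BAD at -0.33. The others lay between -0.22 for BCL2L2 and 0.07 for BCL2L12. BCL2, BCL2L1, BAK1 and BID stayed between -0.10 and 0.04 in THP1, and MCL1 stood at 0.16. Reads given to no gene made up 17.7% in the Y518R library and 19.4% in the 3R library of THP1, and myeloid markers summed to 1095 CPM with Y518R and 1074 CPM with 3R.

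In RAJI, 2 members were lower with Y518R by the same rule, beside 4.28% of 8911 genes. BCL2 had 64.4 CPM with Y518R, against 152 CPM with 3R, a log2 ratio of -1.24 (fold 0.395 to 0.452). BCL2A1 had 37.2 CPM with Y518R, against 77.9 CPM with 3R, a log2 ratio of -1.06 (fold 0.437 to 0.523). Both are guardians, and both also passed a 2-fold rule that 1.2% of genes passed on the lower side. The remaining guardians lay in the same direction, BCL2L1 at -0.51 and MCL1 at -0.30. The 6 pro-apoptotic members lay on both sides of 0. BAK1 stood at 0.31, PMAIP1 at 0.22, BID at 0.11 and BAX at 0.04, against -0.10 for BCL2L11 and -0.07 for BBC3. Of BCL2 family genes outside the 10 that reached 10 CPM, BMF stood at -0.90, BNIP3L at -0.84, BCL2L2 at -0.30 and BAD at -0.26. BIK stood at 0.44, BCL2L12 at 0.15 and BCL2L13 at -0.04. Reads given to no gene made up 23.4% in the Y518R library and 44.7% in the 3R library of RAJI, and their part in these ratios was not tested.

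In MOLM13, 1 member was lower by the rule, beside 3.3% of 9673 genes, and it was PMAIP1. It had 50.2 CPM with Y518R, against 77.7 CPM with 3R, a log2 ratio of -0.63 (fold 0.597 to 0.698). MCL1, the guardian that NOXA binds, stood at -0.37 in this line, BID at 0.28 and BBC3 at 0.27. Of BCL2 family genes outside the 10 that reached 10 CPM, BNIP3L passed the rule, at -0.65. The others lay between -0.26 for BCL2L2 and 0.29 for BAD. No member passed the rule in RS4-11, KOPN8, K562, JURKAT or P493-6, where 0.214%, 0.741%, 0.654%, 0.288% and 0.29% of genes passed it in either direction. In THP1, RAJI and MOLM13 no member was higher by the rule, beside 5.23%, 0.64% and 4% of genes. Below 10 CPM, BCL2 in K562 had a log2 ratio of 1.21 (fold 1.46 to 4.16) and BCL2A1 in RS4-11 one of 1.56 (27 counts with Y518R and 10 with 3R, fold 1.66 to 8.20).

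**Figure D3:**
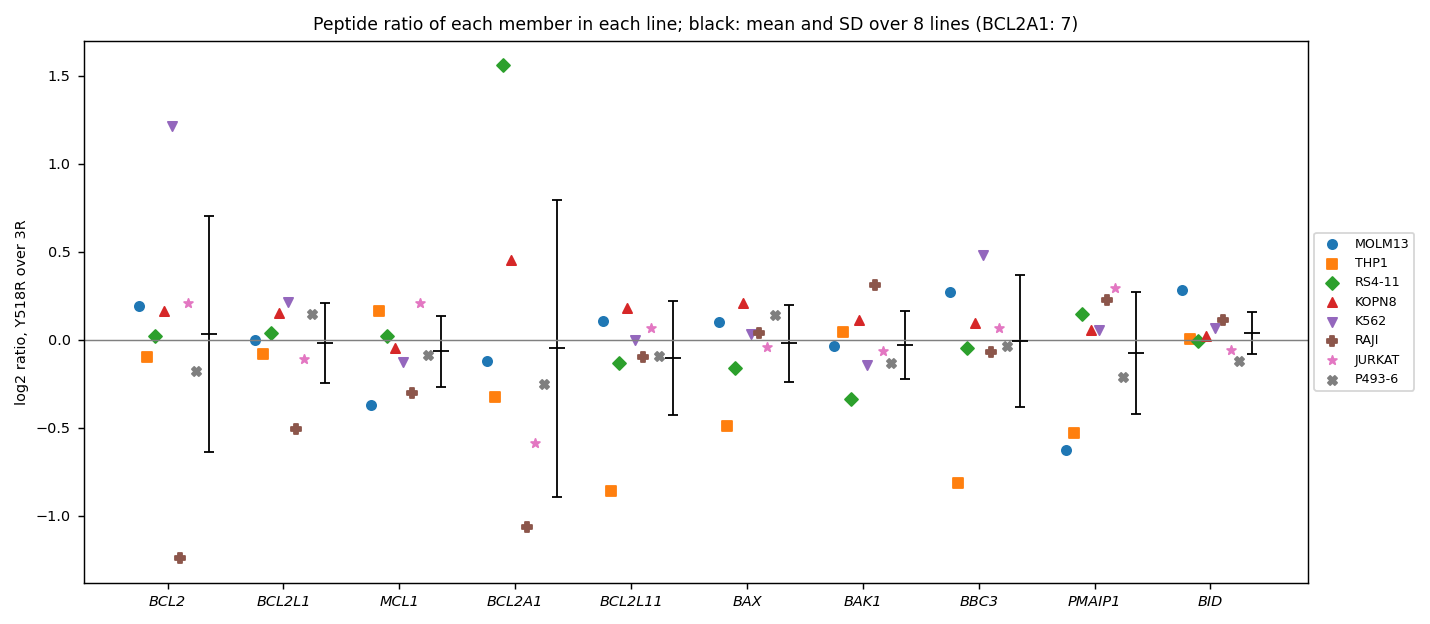
Log2 ratio of the Y518R to the 3R level of each member in each line, with black marks for the mean and SD over lines; BCL2A1 is left out for K562, where both counts are 0. THP1 is lowest for BCL2L11, BBC3 and BAX, and RAJI is lowest for BCL2, BCL2L1 and BCL2A1, while the high points of K562 for BCL2 and of RS4-11 for BCL2A1 rest on 66 and 27 counts with Y518R.

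The balance between members was followed as the log2 ratio of 2 genes in a library, in which scaling cancels. MCL1 over BCL2 in RAJI was 2.65 with Y518R, against 1.71 with 3R, and in MOLM13 it was 1.68 with Y518R, against 2.24 with 3R. BAX over BCL2 in RAJI was 0.15 with Y518R, against -1.13 with 3R, a move of 1.28 on the log2 scale. In THP1, BCL2L11 over BCL2 was -2.02 with Y518R, against -1.26 with 3R. PMAIP1 over MCL1 in THP1 was -3.0 with Y518R, against -2.31 with 3R. In K562, where BCL2 had 66 counts with Y518R and 21 with 3R, the ratios over BCL2 moved the other way from RAJI, by -1.34 for MCL1, -1.18 for BAX and -1.21 for BCL2L11. In RS4-11, KOPN8, JURKAT and P493-6 these 4 ratios moved by at most 0.32 in size. BCL2L1 over BCL2, also taken, moved there by at most 0.33, in P493-6. BCL2A1 over BCL2 moved by 1.54 in RS4-11, -0.79 in JURKAT, 0.29 in KOPN8 and -0.07 in P493-6. BCL2A1 had 27 counts with Y518R and 10 with 3R in RS4-11, and 2 and 6 in JURKAT. Gene length does not cancel between genes, so only the change of a ratio between libraries can be read.

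Levels between classes of lines were compared in the 3R libraries, 4 MLL-fusion lines against 4 other lines. No member was called, beside 0.0534% of 13107 genes, and 0 members had an unadjusted p under 0.05, against 1323 genes. DESeq2 and limma-voom called 0 members, with 0 and 1 at an unadjusted p under 0.05. BCL2 averaged 172 ± 97.4 CPM in MLL-fusion lines and 47.9 ± 70.4 CPM in other lines (SD, n = 4 each). All 4 MLL-fusion lines lay above K562, JURKAT and P493-6, and RAJI lay among them. The log2 difference was 1.86 ± 1.20 (SE, adjusted p = 0.620, edgeR), and without RAJI it was 3.70 (adjusted p = 0.506). In the Y518R libraries it was 2.72 (adjusted p = 0.439), and there the levels of 88.9 to 313 CPM in MLL-fusion lines did not overlap those of 2.19 to 64.4 CPM in other lines, as was so for 4.22% of genes on the higher side.

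BCL2L1 differed the other way, with 60.2 ± 22.6 CPM in MLL-fusion lines and 144 ± 91.6 CPM in other lines (SD, n = 4 each). K562, RAJI and JURKAT lay above all 4 MLL-fusion lines and P493-6 below them, and the log2 difference was -1.26 ± 0.62 (SE, adjusted p = 0.529, edgeR). BAX had 102 ± 34.1 CPM in MLL-fusion lines and 58.3 ± 30.0 CPM in other lines (SD, n = 4 each), a log2 difference of 0.80 ± 0.43 (SE), with overlapping groups. BID had 113 ± 44.8 CPM in MLL-fusion lines and 69.7 ± 32.3 CPM in other lines (SD, n = 4 each), a log2 difference of 0.69 ± 0.41 (SE), also with overlap. The other 6 members lay between -3.06 for BCL2A1 and 0.31 for BAK1. In the 3R libraries 0 of 10 members had groups that did not overlap, beside 7.45% of genes in either direction.

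The 2 Burkitt lines were set against the 6 leukemia lines in the same libraries. No member was called, beside 0.0398% of 15075 genes, and 3 members and 1081 genes had an unadjusted p under 0.05. DESeq2 and limma-voom also called 0 members. BCL2L11 had 216 CPM in RAJI and 76.1 CPM in P493-6, against a lowest, median and highest of 31.1, 41.7 and 75.4 CPM in leukemia lines, so the groups did not overlap, as was so for 5.66% of genes on the higher side. The log2 difference was 1.56 ± 0.44 (SE, adjusted p = 0.571, edgeR), DESeq2 gave an adjusted p of 0.0634, the other alternatives gave 0.266 to 0.827, and without RAJI the difference was 0.63. With Y518R the groups overlapped, with 201 CPM in RAJI and 71.3 CPM in P493-6, against 35.2 to 81.2 CPM in leukemia lines.

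BID lay lower in the Burkitt lines, with 45.8 CPM in RAJI and 54.4 CPM in P493-6, against a lowest, median and highest of 61.4, 103 and 171 CPM in leukemia lines. The log2 difference was -1.08 ± 0.46 (SE, adjusted p = 0.631, edgeR), and without RAJI it was -0.96. Without RAJI, 0 members had an unadjusted p under 0.05 in this comparison. The groups did not overlap in the Y518R libraries either, with 49.4 CPM in RAJI and 50.1 CPM in P493-6, against 64.4 to 171 CPM in leukemia lines. Not overlapping on the lower side was also seen for 4.78% of genes with 3R and 4.93% with Y518R. BCL2A1 differed by 4.64 ± 1.97 (SE, adjusted p = 0.631, edgeR) with MOLM13 between the Burkitt lines, and by 1.59 without RAJI. PMAIP1 differed by 1.17 ± 0.84 (SE), and by -0.13 without P493-6. The other 6 members lay between -0.55 for BCL2 and 0.60 for BBC3.

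**Figure D4:**
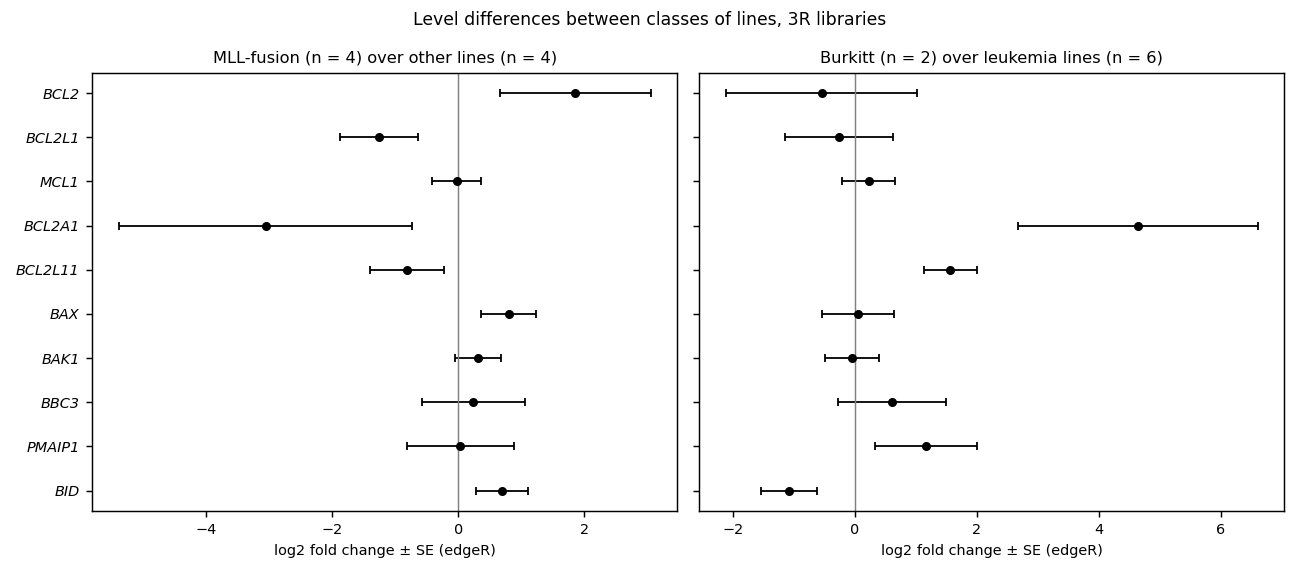
Log2 fold change of each member between classes of lines in the 3R libraries, with SE bars, from edgeR; left, 4 MLL-fusion lines over 4 other lines, right, 2 Burkitt lines over 6 leukemia lines. The estimates for BCL2 and BCL2A1 have the widest bars, and none of the 10 members was called in either comparison.

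The neighbouring parts of the apoptosis machinery were counted over the same comparison of 8 lines, in which 0 genes of each list were called. Of 13 further BCL2 family genes 10 were tested, with 2 above 0 and a median of -0.11. BCL2L2, the guardian BCL-W, had the lowest p of all these lists at -0.21 ± 0.08 (SE, adjusted p = 0.999, edgeR), and TNFRSF10B, the TRAIL receptor DR5, followed at -0.17 ± 0.08 (SE, adjusted p = 0.999, edgeR). Of 16 genes of the apoptosome, the caspases and mitochondrial release, 9 were above 0, with a median of 0.019. Of 6 inhibitors of apoptosis 2 were above 0 (median -0.028), and of 10 genes of the death receptor arm 6 (median 0.0054). Of 14 transcriptional regulators of the family 8 were above 0 (median 0.017), and of 6 genes of MCL1 protein turnover 4 (median 0.015). These medians stand beside -0.0037 over all genes.

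In the classes, the lowest p among these lists belonged to TNFRSF10B at -0.25 ± 0.11 (SE) and DFFA at 0.17 ± 0.08 (SE) in MLL-fusion lines, and to FAS at -0.28 ± 0.12 (SE) and APAF1 at -0.23 ± 0.11 (SE) in the other lines. FAS is a death receptor, APAF1 the scaffold of the apoptosome and DFFA the inhibitor of the apoptotic nuclease. In the difference between classes they were TRADD, an adaptor of death receptors, at 0.37 ± 0.21 (SE) and STAT5A at 0.27 ± 0.17 (SE). None of these was called, with adjusted p between 0.840 and 0.9996. Between lines with 3R, DFFA stood at -1.55 ± 0.33 (SE) and APAF1 at 1.52 ± 0.34 (SE) in MLL-fusion against other lines (adjusted p = 0.312 for both, edgeR). MYC stood at 3.10 ± 0.67 (SE, adjusted p = 0.379, edgeR) and REL at 1.92 ± 0.56 (SE, adjusted p = 0.589, edgeR) in Burkitt against leukemia lines, with 0 genes of the lists called in either.

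As a description over the mean log2 CPM of 8 lines, the pair of members most alike was BCL2A1 and BCL2L11, with a Pearson r of 0.92, both being highest in RAJI. BAX and BBC3 had an r of 0.78, and BCL2L11 and BID one of -0.73. Among 9863 genes with a mean of at least 10 CPM, the 2 most like BCL2 were GCA (r = 0.96) and HECA (r = 0.96), those most like BCL2L1 were CDK1 (r = 0.98) and KIF5B (r = 0.97), and those most like MCL1 were TRMT11 (r = 0.94) and VASP (r = 0.93). For BCL2A1 they were ATP5A1 (r = 0.97) and SOCS1 (r = 0.96), and for BCL2L11 they were CSRNP1 (r = 0.95) and ATP5A1 (r = 0.94). The genes closest to BAX were BTG1 (r = 0.98) and CDKN1A (r = 0.95), which encodes an inhibitor of cyclin-dependent kinases, and those closest to BAK1 were PRIC285 (r = 0.95) and GPR160 (r = 0.93). BBC3 lay closest to SCAMP4 (r = 0.97) and YARS (r = 0.96), PMAIP1 to C5orf41 (r = 0.96) and MCCC1 (r = 0.95), and BID to ZNF766 (r = 0.96) and ATP9A (r = 0.95). The points are the 8 line means, each over both libraries of a line, and as the genes were picked from 9863 for their r, no p is given.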

How the data were processed

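The deposited values are counts of reads per gene, whole numbers for 23230 gene symbols in each of 16 libraries, per the file contents; 5 entries that name no gene were kept out of library sizes. Polyadenylated RNA was sequenced per the labels' protocols, and the submitters' processing notes list HTSeq 0.6.1, TopHat2 2.1.1, DESeq, DESeq2 3.0 and CASAVA 1.8.4, with the builds GRCh38 and hg19, without roles. The test was that of edgeR 4.0.16 under R 4.3.3 (quasi-likelihood test, TMM, filterByExpr at a minimum count of 10, line as block, Benjamini-Hochberg over all genes tested, calls at an adjusted p under 0.05), checked on simulated data. Class effects shared a fit, and class levels were fitted on the 8 libraries with 3R. The labelled line pairs the libraries, and both libraries of a line deviated together (correlation 0.945 to 0.972). Nothing in the labels shows separate cultures, so p-values measure the spread between lines with 1 library per peptide, which may be partly technical. Alternatives were RLE size factors, DESeq2 1.42.0, limma-voom (limma 3.58.1), no filter, a minimum count of 50, no block, the Y518R or summed libraries, and leaving out each line. Intervals are exact at 95%, and with the limit of 3 counts cover counting error only. All 10 members were named, and of other lists the genes called or, with none called, the 2 of lowest p. For each member the 2 genes of highest Pearson r were named. Members and lists were chosen with earlier results of these data known.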

Additional observations from a re-analysis of the deposited data

Results flagged for a closer look

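Of 32 groups of 8 values, 1 per line, examined with Dixon's ratio, 5 had a value far from the others, and chance alone does this in about 1 in 20 groups. The peptide ratio of BCL2L11 in THP1, -0.858 on the log2 scale, lay far below that of the other 7 lines, of which the nearest was -0.131. The ratio of BBC3 in THP1, -0.813, lay apart in the same way, with the nearest line at -0.0696. The ratio of BCL2L1 in RAJI, -0.508, stood below the nearest line at -0.11. The BCL2L11 level in RAJI with 3R, 7.75 log2 CPM, lay above the nearest line with 3R at 6.25. Reads given to no gene made up 44.7% in the RAJI library with 3R, against 26.3% in the nearest library with 3R, and the part of this in the RAJI ratios was not tested.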

How the results depend on the processing

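The count of members called was 0 in all 6 comparisons and under all alternatives run, 38 fits with another setting and 48 that leave out a line. A minimum count of 50 left BCL2A1 out of the peptide comparisons, and DESeq2 gave no p for BCL2A1 between Burkitt and leukemia lines. Directions of members that were not called did turn. Over 8 lines BCL2 became 0.0085 and BBC3 -0.00031 with DESeq2, and BBC3 became -0.00048 with a minimum count of 50. Without the line as replicate block, BAX became 0.025 over 8 lines and the class difference of PMAIP1 0.022, and the pairing changed no call. Leaving out each line gave ranges of -0.14 to 0.00046 for BCL2L11, -0.46 to 0.11 for BCL2A1, -0.12 to 0.0065 for PMAIP1, -0.12 to 0.11 for BCL2, -0.080 to 0.011 for BAK1, -0.052 to 0.046 for BAX, -0.052 to 0.051 for BCL2L1 and -0.066 to 0.11 for BBC3 over 8 lines. Likewise it gave -0.29 to 0.045 for BCL2L11 in MLL-fusion lines, -0.48 to 0.19 for BCL2 in the other lines, -0.13 to 0.55 for the class difference of BCL2 and -0.13 to 1.87 for PMAIP1 between Burkitt and leukemia lines, where a lone Burkitt line is assumed to vary like the others. Over all genes, limma-voom called 1, 20, 2 and 2 genes in the 4 peptide comparisons (8 lines, MLL-fusion, other, difference), the fit with no filter 3, 52, 1 and 9, and DESeq2 1 in MLL-fusion lines and 2 in the difference, against 0 with edgeR. Leaving out a line gave 0 to 3 genes in MLL-fusion lines and 0 to 1 in the difference. Between MLL-fusion and other lines 7 genes became 477 with DESeq2, 4 with limma-voom, 11 with a minimum count of 50, 4 in Y518R libraries and 4 to 11 without a line. Between Burkitt and leukemia lines 6 became 755 with DESeq2, 3 in Y518R libraries and 0 to 8 without a line. Without TMM the ratio of MCL1 was -0.46 in MOLM13 and 0.20 in THP1 and that of BAX 0.0086 in MOLM13. The cause of these differences was not tested. Depth limits BCL2A1 outside RAJI, MOLM13 and P493-6, and BCL2 in K562.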
